A study of Mus musculus with 4 samples.

Results

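The S phase and DNA replication genes described here are 35 mouse genes that were drawn by symbol from a commonly used set of S phase markers, out of 33565 genes listed in each count matrix. All 35 were found by symbol, and all had a mean of at least 5 CPM (UMI counts scaled to a total of 1000000) over the 3 lines, so that none was lost to the filter on low values. A cell copies its genome once per cycle, in S phase. In G1 the origins are licensed by loading of the MCM helicase, which is then activated together with CDC45 and the GINS complex, and DNA polymerase alpha with its primase starts each new strand, which is extended around the sliding clamp PCNA. Many of the genes for these proteins are transcribed under E2F factors around the G1/S transition, which is why they are used to mark cells near S phase in single-cell data.

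The genes were measured in 3 mouse cell lines by CapSeq, a split-pool single-cell RNA-seq method in which a barcode from a first plate (BC1) marks the well, and therefore the line, of each cell. N2a is a neuroblastoma line and NIH/3T3 an embryonic fibroblast line, both untreated and grown in DMEM with fetal bovine serum. The mouse embryonic stem cells (mESCs, line E14TG2a) were kept on gelatin in DMEM with serum, leukemia inhibitory factor and the inhibitors CHIR99021 and PD0325901, so that line and medium cannot be told apart. The lines were pooled into 1 library, each was represented by 1 culture without replicates, and no test between lines and no p-value is given. Intervals are exact 95% intervals that cover counting error only. The spread over the 32 BC1 sequences of a line holds both technical variation and the sampling of different cells. It is not a spread over replicates, since all came from 1 culture.

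A barcode was kept as a cell where it held 1000 or more UMIs, of which no more than 20% were mitochondrial, and 2323 N2a, 2037 NIH/3T3 and 2137 mESC cells remained, with 17955221, 11697865 and 12322098 UMIs. The median number of UMIs per cell was 6185 in N2a, 4803 in mESCs and 4863 in NIH/3T3. The 3 matrices shared 0 cell barcodes, which follows from the split by BC1 and is no check on the separation of the lines. Of 5 identity markers per line, all 5 were highest in their own line for NIH/3T3 and for mESCs, and 4 of 5 for N2a. The exception, Gata3, was at 3.84 CPM in N2a and 8.44 CPM in mESCs. Dbh, counted among the 4, was at only 0.891 CPM in N2a, from 16 UMIs. Doublets were not called.

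Of the 35 genes, 27 had an entry in the RefSeq promoter table (GRCm38.p6), and the 250 bases before the start were searched on both strands for the E2F site letters TTTCCCGC, TTTCGCGC, TTTGCCGC and TTTGGCGC. A match was present in 8 of the 27 genes (29.6%), in 8 of 53 other replication genes (15.1%), in 3 of 46 G2/M genes (6.52%) and in 583 of all 27025 genes (2.16%). The 8 genes were Mcm5, Mcm6, Cdc6, Pola1, Uhrf1, Hells, Casp8ap2 and Dtl. A match describes the letters only, and no match says only that these letters were not in this window. Below are 4 of these windows, chosen to show matches near and far from the start, for 3 genes that were highest in mESCs (Mcm6, Hells and Pola1) and 1 that was highest in N2a (Dtl). The positions given with the 4 genes are those of the windows on GRCm38.p6. Mcm6 encodes an MCM subunit, and its window lies at chr1:128359706-128359955 on the minus strand. Its matches started 110, 106 and 47 bases before the gene start, and the first 2 overlap. Dtl encodes the adaptor that sends CDT1 for destruction at replicating DNA (chr1:191575545-191575794, minus strand), and its match ended at the base before the start. Hells encodes a chromatin remodeler (chr19:38930740-38930989, plus strand) and had a match from 62 to 55 bases before the start. Pola1 encodes the catalytic subunit of DNA polymerase alpha (chrX:93632156-93632405, minus strand), and its match, on the other strand, lay from 138 to 131 bases before the start. The sequences run 5′ to 3′ on the strand of the gene, and capitals mark the matched letters.
Mcm6: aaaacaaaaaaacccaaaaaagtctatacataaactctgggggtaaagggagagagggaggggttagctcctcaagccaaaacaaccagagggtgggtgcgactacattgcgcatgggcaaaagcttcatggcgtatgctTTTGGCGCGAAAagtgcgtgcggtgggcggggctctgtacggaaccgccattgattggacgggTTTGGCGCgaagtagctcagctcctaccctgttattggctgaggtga
Dtl: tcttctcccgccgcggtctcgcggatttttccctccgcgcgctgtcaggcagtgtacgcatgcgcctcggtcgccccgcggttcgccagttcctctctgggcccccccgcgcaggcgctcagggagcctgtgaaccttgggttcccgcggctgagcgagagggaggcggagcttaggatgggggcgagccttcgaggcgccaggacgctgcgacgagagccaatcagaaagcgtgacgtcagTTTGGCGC
Hells: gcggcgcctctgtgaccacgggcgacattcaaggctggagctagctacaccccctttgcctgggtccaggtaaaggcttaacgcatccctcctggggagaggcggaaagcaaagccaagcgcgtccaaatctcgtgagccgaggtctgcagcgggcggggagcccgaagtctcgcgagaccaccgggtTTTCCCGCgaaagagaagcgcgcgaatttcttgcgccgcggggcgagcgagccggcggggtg
Pola1: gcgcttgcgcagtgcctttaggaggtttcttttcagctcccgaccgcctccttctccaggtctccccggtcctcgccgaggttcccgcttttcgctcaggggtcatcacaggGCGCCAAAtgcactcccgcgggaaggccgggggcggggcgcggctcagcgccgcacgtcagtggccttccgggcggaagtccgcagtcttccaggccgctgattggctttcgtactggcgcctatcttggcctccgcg

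The summed level of the 35 genes was higher in mESCs than in both other lines, which differed little from each other. It was 7054.2 CPM in mESCs (95% exact Poisson interval 7007.3 to 7101.2), 4438.0 CPM in N2a (4407.3 to 4469.0) and 4402.3 CPM in NIH/3T3 (4364.4 to 4440.5). The ratio was 1.59 for mESC over N2a (1.57 to 1.60), 1.60 for mESC over NIH/3T3 (1.58 to 1.62) and 1.01 for N2a over NIH/3T3 (0.997 to 1.02). Over the 32 BC1 sequences, with between 33 and 102 cells each, the level had a lowest, median and highest value of 6452.3, 7077.2 and 7417.7 CPM in mESCs. The same values were 3830.2, 4442.2 and 5384.4 CPM in N2a and 3968.6, 4380.5 and 5088.3 CPM in NIH/3T3. The mESC range lay above both others without overlap, whereas the N2a and NIH/3T3 ranges overlapped almost entirely. In these summed values, more cells in S phase and more RNA of these genes per cell cannot be told apart.

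**Figure D1:**
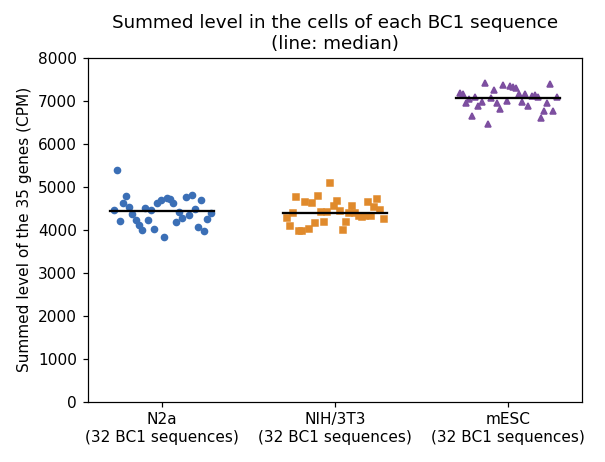
Summed level of the 35 genes in CPM (y axis) for each of the 32 BC1 sequences of N2a, NIH/3T3 and mESCs, with a line at the median; each point sums the cells of 1 BC1 sequence. The mESC points lie between 6452.3 and 7417.7 CPM, above all N2a points (up to 5384.4 CPM) and all NIH/3T3 points (up to 5088.3 CPM).

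Much of the difference rested on a few genes. Without Nasp, Pola1 and Hells, which were chosen after their values were seen, the sums were 3515.3 CPM in N2a, 4681.8 CPM in mESCs and 3408.0 CPM in NIH/3T3, and the mESC ratios became 1.33 over N2a and 1.37 over NIH/3T3. Over the 35 genes taken singly, the median log2 ratio was 0.45 for mESC over N2a and 0.39 for mESC over NIH/3T3, against -0.05 and -0.01 over all 11498 genes with a mean of at least 5 CPM. For N2a over NIH/3T3 the median was 0.03 for the 35 genes and 0.03 for all genes. For 52 genes of the later G2/M phase, the median was 0.80 for mESC over N2a and 0.27 for mESC over NIH/3T3. For N2a over NIH/3T3 it was -0.53 in these G2/M genes. A higher median in mESCs was thus not particular to the 35 genes. The level was highest in mESCs for 20 of the 35 genes, in N2a for 8 and in NIH/3T3 for 7, and mESCs were the lowest line for 3.

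A gene was called different between lines where the ratio of CPM + 1 was at least 1.5. For mESC over N2a, 14 of the 35 genes were called (40.0%), where 26.2% of all genes were, and in the opposite direction 2 genes, Dtl and E2f8 (5.71%), where 30.3% of all genes were. For mESC over NIH/3T3, 15 genes were called (42.9%), against 28.8% of all genes, and 2 genes, Rrm1 and E2f8, were called higher in NIH/3T3, against 29.8%. For N2a over NIH/3T3, 8 genes were called (22.9%), against 27.4% of all genes, and 6 were called higher in NIH/3T3 (17.1%), against 25.7%. The share called thus lay above the share over all genes where mESCs were the higher line, and below it where they were the lower line. Between N2a and NIH/3T3 both shares were nearer to the background, and these small counts carry no finding.

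The ranges over the BC1 sequences of mESCs and N2a did not overlap for 10 of the 35 genes (28.6%), where this held for 23.6% of all genes, so this count was near the background. All 10 were higher in mESCs, namely Mcm4, Mcm5, Pola1, Pcna, Rrm2, Uhrf1, Hells, Nasp, Tipin and Wdr76. Between mESCs and NIH/3T3 the ranges were apart for 10 genes, where the share over all genes was 20.4%. Rrm1 was higher in NIH/3T3, and the other 9 were higher in mESCs (Mcm2, Mcm5, Pola1, Uhrf1, Hells, Nasp, Ung, Blm and Wdr76). Between N2a and NIH/3T3 they were apart for 3 genes (8.57%), where 20.9% of all genes were. Dtl was higher in N2a, and Rrm2 and Usp1 were higher in NIH/3T3.

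**Figure D2:**
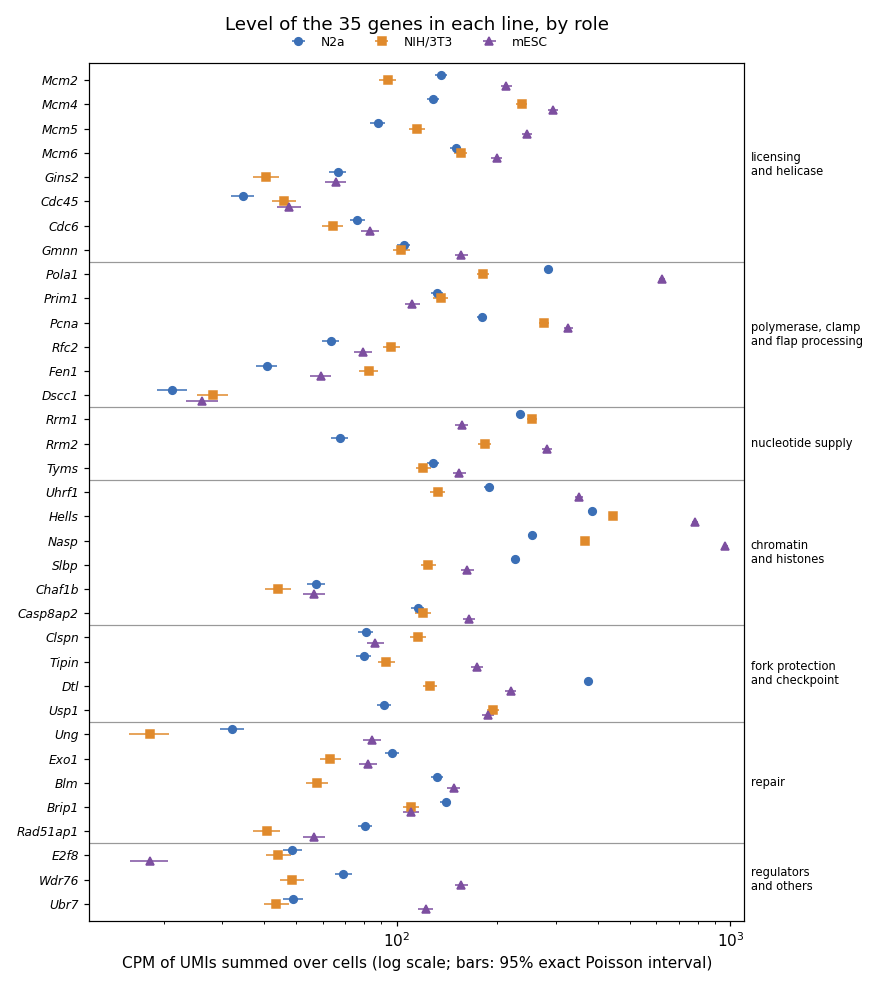
Level of each of the 35 genes, grouped by role, as CPM of the UMIs summed over cells on a log scale (x axis) in N2a, NIH/3T3 and mESCs; bars are 95% exact Poisson intervals, hidden by the symbol where narrow. The mESC symbol is rightmost for 20 genes, as for Nasp (964.7 CPM) and Pola1 (623.8 CPM), and leftmost for 3.

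The genes for licensing and the helicase were together highest in mESCs, at 1304.5 CPM against 784.7 in N2a and 855.9 in NIH/3T3. Mcm5, a subunit of the MCM ring, lies on chromosome 8 (75836140 to 75856231, GRCm39, the build of all gene positions from here on). It was at 87.7 CPM in N2a, 245.4 in mESCs and 115.3 in NIH/3T3. Mcm5 thus had a ratio of 2.80 for mESC over N2a (2.63 to 2.98) and 2.13 for mESC over NIH/3T3 (2.00 to 2.27). Its lowest, median and highest values over BC1 sequences were 189.3, 242.0 and 357.5 CPM in mESCs, above the highest value in N2a (117.8) and in NIH/3T3 (152.0). All subunits of the ring were highest in mESCs, and all but Mcm2 were lowest in N2a, for Mcm6 by a small margin. Mcm2 was lowest in NIH/3T3, at 94.0 CPM against 135.6 in N2a and 213.1 in mESCs. Mcm4 was lowest in N2a, at 128.8 CPM against 293.9 in mESCs and 236.8 in NIH/3T3. For Mcm6 the 3 levels were close, at 150.2 CPM in N2a, 199.2 in mESCs and 155.6 in NIH/3T3. The ring subunits Mcm3 and Mcm7 are not in the set. Mcm3 was at 109.7, 185.2 and 327.1 CPM and Mcm7 at 108.0, 191.7 and 222.4 CPM in N2a, NIH/3T3 and mESCs.

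The other licensing genes had no ratio above 1.64 between any pair of lines. Cdc45, whose product is part of the active helicase, was at 34.5, 46.0 and 47.6 CPM in N2a, NIH/3T3 and mESCs. Gins2, a GINS subunit, was at 66.5, 40.6 and 65.6 CPM in the same order, and for mESC over N2a the interval of the ratio included 1 (0.986, 0.901 to 1.08). Cdc6, the factor that loads MCM at origins, was at 76.2, 64.3 and 83.4 CPM in that order. Gmnn encodes geminin, the inhibitor of CDT1 that blocks renewed licensing, and was at 105.1, 103.3 and 156.2 CPM in that order, with a ratio of 1.51 for mESC over NIH/3T3 that lay at the call threshold.

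Among the genes for the polymerase, the clamp and flap processing, Pola1 (chromosome X, 92348365 to 92675813) stood apart. Its level was 283.7 CPM in N2a, 623.8 in mESCs and 181.5 in NIH/3T3. The lowest, median and highest values over BC1 sequences were 214.5, 287.8 and 364.4 CPM in N2a, 105.8, 182.9 and 248.3 in NIH/3T3, and 463.7, 626.3 and 761.2 in mESCs. The mESC range lay above both others, with a ratio of 2.20 over N2a (2.12 to 2.28) and 3.44 over NIH/3T3 (3.28 to 3.61). Prim1, the primase subunit that works with polymerase alpha, went the other way, at 131.9, 135.4 and 111.5 CPM in N2a, NIH/3T3 and mESCs. Whether introns were counted is not stated, which bears on long genes such as Pola1, with a gene length of 327449 bases.

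Pcna, the sliding clamp, was at 180.1 CPM in N2a, 327.1 in mESCs and 275.7 in NIH/3T3, and its N2a range over BC1 sequences (136.9 to 227.2) lay below that of mESCs (264.5 to 407.2). Fen1, the nuclease that removes flaps between Okazaki fragments, was highest in NIH/3T3, at 82.3 CPM against 40.8 in N2a and 59.2 in mESCs. Rfc2, a subunit of the clamp loader, had the same order of lines as Fen1, at 96.3 CPM in NIH/3T3, 63.4 in N2a and 79.2 in mESCs. Dscc1, part of an alternative clamp loader that acts in cohesion, was at 21.2 CPM in N2a, 26.1 in mESCs and 28.1 in NIH/3T3.

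The subunits of ribonucleotide reductase, which makes deoxynucleotides, were opposed. Rrm2 encodes the small, cell-cycle regulated subunit (chromosome 12, 24757811 to 24764145) and was at 67.4 CPM in N2a, 282.4 in mESCs and 183.5 in NIH/3T3. The N2a values over BC1 sequences were 45.8, 65.8 and 92.6 CPM at the lowest, median and highest, below the lowest NIH/3T3 value (135.4) and the lowest mESC value (210.1). The ratio was 4.19 for mESC over N2a (3.92 to 4.48), and 0.367 for N2a over NIH/3T3 (0.342 to 0.394). Rrm1, the large subunit (chromosome 7, 102090890 to 102119709), was instead lowest in mESCs, at 156.9 CPM against 234.4 in N2a and 254.6 in NIH/3T3. Its BC1 values ran from 125.7 to 202.7 CPM in mESCs and from 202.7 to 303.9 in NIH/3T3, so that the groups were apart by a margin that vanished on rounding. Tyms, the thymidylate synthase gene, was at 128.2, 120.1 and 154.0 CPM in N2a, NIH/3T3 and mESCs. The sum of these 3 genes differed least between mESCs and NIH/3T3, at 593.2 and 558.1 CPM, with N2a at 430.0 CPM.

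The genes for chromatin and histones showed a larger summed ratio for mESC over N2a than any of the other 6 roles, with 2484.4 CPM in mESCs, 1226.6 in N2a (ratio 2.03) and 1233.8 in NIH/3T3 (ratio 2.01). Nasp encodes a histone chaperone that holds a soluble pool of H3 and H4 (chromosome 4, 116458246 to 116485215) and was at 255.0 CPM in N2a, 964.7 in mESCs and 367.1 in NIH/3T3. Its lowest, median and highest values over BC1 sequences were 187.7, 254.6 and 335.7 CPM in N2a, 314.3, 360.4 and 487.2 in NIH/3T3, and 744.7, 964.9 and 1091.4 in mESCs. The ratio was 3.78 for mESC over N2a (3.66 to 3.91) and 2.63 for mESC over NIH/3T3 (2.54 to 2.72), while N2a and NIH/3T3 overlapped. Hells was at 384.0 CPM in N2a, 783.8 in mESCs and 445.8 in NIH/3T3, and its lowest mESC value over BC1 sequences, 652.3 CPM, was above the highest in N2a (484.9) and NIH/3T3 (557.5).

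Uhrf1, which brings the maintenance methyltransferase to newly copied DNA, was at 188.6 CPM in N2a, 351.9 in mESCs and 132.8 in NIH/3T3, with a ratio of 1.87 over N2a (1.78 to 1.95) and 2.65 over NIH/3T3 (2.50 to 2.81). Both Uhrf1 and Hells act with DNA methylation, and both had their mESC range above the other lines, as had Mcm5, Pola1, Nasp and Wdr76. Dnmt1, the gene of the maintenance methyltransferase, is not in the set. It was at 163.5, 189.3 and 225.9 CPM in N2a, NIH/3T3 and mESCs, with ratios of 1.38 for mESC over N2a and 1.19 for mESC over NIH/3T3. Slbp, whose product binds the stem-loop of histone mRNAs, was highest in N2a, at 226.2 CPM against 162.8 in mESCs and 124.2 in NIH/3T3. Chaf1b, a subunit of the chromatin assembly factor CAF-1, was at 57.3, 44.1 and 56.5 CPM in N2a, NIH/3T3 and mESCs. Casp8ap2 (FLASH), needed for histone mRNA processing, was at 115.5, 119.9 and 164.7 CPM in the same order.

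In fork protection and checkpoint, the gene with the clearest excess in N2a was Dtl (chromosome 1, 191269468 to 191307669). Its level was 375.3 CPM in N2a, 219.3 in mESCs and 125.9 in NIH/3T3. The lowest, median and highest values over BC1 sequences were 245.2, 367.3 and 474.9 CPM in N2a, 75.2, 123.2 and 187.1 in NIH/3T3, and 177.7, 213.4 and 272.9 in mESCs. The N2a range was apart from that of NIH/3T3, with a ratio of 2.98 (2.82 to 3.16), and overlapped with that of mESCs. Usp1, the deubiquitinase of PCNA and FANCD2, was lowest in N2a, at 91.8 CPM against 187.9 in mESCs and 193.9 in NIH/3T3. Tipin, a fork protection factor, was highest in mESCs at 174.2 CPM, with 79.5 in N2a and 93.2 in NIH/3T3. Clspn encodes Claspin, an adaptor of the replication checkpoint, and was at 80.6, 115.9 and 86.3 CPM in N2a, NIH/3T3 and mESCs.

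For the repair genes NIH/3T3 was the low line, with a sum of 290.0 CPM against 481.5 in N2a and 481.3 in mESCs. Blm, a RecQ helicase, was at 57.6 CPM in NIH/3T3, 132.1 in N2a and 148.0 in mESCs, and its highest BC1 value in NIH/3T3, 84.1 CPM, was below the lowest in mESCs, 109.0 CPM. Ung, which removes uracil from DNA, was at 18.2 CPM in NIH/3T3, 32.1 in N2a and 84.5 in mESCs, a ratio of 4.64 for mESC over NIH/3T3 (4.00 to 5.40). Ung and Blm were the repair genes whose mESC and NIH/3T3 ranges were apart. Exo1, an exonuclease of mismatch repair, was at 96.8, 63.3 and 82.0 CPM in N2a, NIH/3T3 and mESCs. Brip1, a helicase of the Fanconi pathway, was at 140.1, 110.1 and 110.3 CPM. Rad51ap1, a homologous recombination factor, was at 80.4, 40.8 and 56.6 CPM, so that all 3 were highest in N2a.

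The remaining genes were opposed within mESCs. E2f8, an E2F family member that represses E2F targets, was at 48.7 CPM in N2a, 18.2 in mESCs and 44.2 in NIH/3T3, a ratio of 0.373 for mESC over N2a (0.321 to 0.433) and 0.411 for mESC over NIH/3T3 (0.350 to 0.482). Its BC1 values were 27.8, 48.7 and 67.5 CPM in N2a, 20.5, 42.2 and 72.7 in NIH/3T3, and 3.86, 17.5 and 34.2 in mESCs at the lowest, median and highest. The ranges overlapped, although the mESC median was below the lowest value of both other lines. Wdr76, a WD40 protein gene, was at 156.1 CPM in mESCs against 69.2 in N2a and 48.5 in NIH/3T3. Ubr7, which encodes an E3 ubiquitin ligase of the UBR family, was at 122.0 CPM in mESCs against 48.9 and 43.6 CPM.

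Of 61 other replication genes that are not in the set of 35, 60 passed the filter and Chtf8 was at 0 in all 3 lines. Their sum was 5181.3 CPM in N2a, 7351.7 in mESCs and 5595.2 in NIH/3T3, a ratio of 1.42 for mESC over N2a and 1.31 for mESC over NIH/3T3. Of the 60, 24 were called higher in mESCs than in N2a (40.0%, against 26.2% of all genes) and 2 lower (3.33%, against 30.3%). For mESC over NIH/3T3, 20 were called higher (33.3%, against 28.8%), which was near the background, and 5 lower (8.33%, against 29.8%). For N2a over NIH/3T3, 6 were called higher (10.0%, against 27.4%) and 16 lower (26.7%, against 25.7%), the latter again near the background. Ticrr (treslin), which acts in origin firing, was at 36.5 CPM in N2a, 303.0 in mESCs and 33.0 in NIH/3T3. Pole4 and Rnaseh2b were also highest in mESCs, Pole4 at 93.9, 84.4 and 284.9 CPM in N2a, NIH/3T3 and mESCs and Rnaseh2b at 34.0, 26.6 and 114.6 CPM. Orc1, the large subunit of the origin recognition complex, was at 42.4, 64.3 and 143.0 CPM. Pold4, the small subunit of polymerase delta, was at 40.6 CPM in NIH/3T3 and at 2.90 and 3.41 CPM in N2a and mESCs. Rnaseh2c was lowest in N2a, at 4.46 CPM against 22.9 in mESCs and 30.3 in NIH/3T3. Pola2, the partner subunit of Pola1, was at 21.7, 69.0 and 47.3 CPM in N2a, NIH/3T3 and mESCs, and so had another order of lines than Pola1. Higher in N2a than in NIH/3T3 were Dctpp1 (182.6 against 74.2 CPM), the licensing factor gene Cdt1 (144.6 against 77.1 CPM) and Orc4 (146.0 against 84.5 CPM). Higher in NIH/3T3 than in mESCs were Pole3 (107.2 against 46.1 CPM) and Tk1 (113.1 against 60.3 CPM), and Asf1b was higher in N2a than in mESCs (59.8 against 37.6 CPM).

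To compare cells, 2000 UMIs were drawn at random from each cell, leaving 2070 N2a, 1775 NIH/3T3 and 1861 mESC cells while 253, 262 and 276 shallower ones were left out. A mESC then held a mean of 14.0 UMIs of the 35 genes (SD 4.58 over cells), an N2a cell 8.97 (SD 5.11) and an NIH/3T3 cell 8.80 (SD 4.01). N2a and NIH/3T3 thus had like means with a different spread. The N2a cells ran from 3 UMIs at the 10th percentile to 16 at the 90th, the NIH/3T3 cells from 4 to 14, and the mESCs from 8 to 20. The variance was 2.92 times the mean in N2a, 1.83 times in NIH/3T3 and 1.50 times in mESCs, where 1 is what counting alone gives. The variance beyond counting, over the squared mean, was 0.214 in N2a, 0.0360 in mESCs and 0.0945 in NIH/3T3. For the other replication genes it had the same order of lines, at 0.0658, 0.0449 and 0.0094 in N2a, NIH/3T3 and mESCs, whereas for 52 G2/M genes it was highest in NIH/3T3, at 0.347 against 0.210 in N2a and 0.0693 in mESCs.

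The lines differed in the share of cells with few and with many UMIs of these genes. At most 5 UMIs were found in 29.1% of N2a cells, 21.7% of NIH/3T3 cells and 2.04% of mESCs. No UMI was found in 16 N2a cells (0.773%, with an exact binomial interval from 0.442% to 1.25%), in 6 cells of NIH/3T3 (0.338%, 0.124% to 0.734%) and in 0 of 1861 mESCs, which allows a share of up to 0.161% at 3 counts, or 0.198% as the upper end of the exact interval. At least 20 UMIs were found in 3.43% of N2a cells, 0.507% of NIH/3T3 cells and 12.6% of mESCs. A cell with few UMIs of these genes was therefore common in N2a and NIH/3T3 and uncommon in mESCs. The sum was nearly unrelated to the depth of the cell before thinning (Pearson r of 0.03, 0.03 and 0.02 over the cells of N2a, NIH/3T3 and mESCs, each within 1 library).

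**Figure D3:**
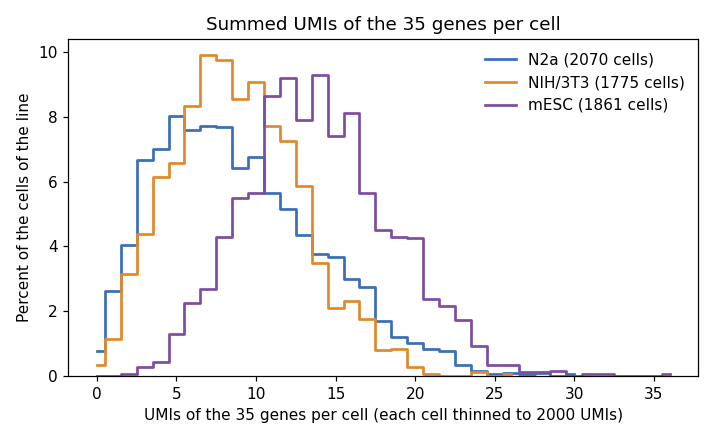
Percent of the cells of each line (y axis) by the number of UMIs of the 35 genes in a cell thinned to 2000 UMIs (x axis), for 2070 N2a, 1775 NIH/3T3 and 1861 mESC cells. The N2a curve is broad and reaches to 0 (mean 8.97, SD 5.11), the NIH/3T3 curve is narrower around a like mean (8.80, SD 4.01), and the mESC curve lies further right (14.0, SD 4.58) with almost no cells near 0.

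Cells were also ordered by G2/M genes, which mark a later phase of the cycle, and split into 5 equal groups. In N2a the mean number of UMIs of the 35 genes was 6.47 in the group with the fewest G2/M UMIs, then 10.2, 10.5 and 9.53, and 8.16 in the group with the most. In NIH/3T3 the values were 7.53, 9.88, 10.3, 8.78 and 7.54, and in mESCs 13.7, 14.7, 14.7, 13.7 and 13.0. All 3 lines had their highest mean in the middle groups, but the difference between the first and the middle group was smaller in mESCs. The Pearson r between both sums over cells was near 0 (0.07 in N2a, -0.07 in mESCs and -0.07 in NIH/3T3), and does not describe a relation of this form. With all UMIs on a log scale, over all kept cells at unequal depth, it was 0.242 in N2a. Its sign turned in mESCs (0.336) and in NIH/3T3 (0.134). In mESCs even the group with the lowest mean, at 13.0 UMIs, was above the highest group mean of both other lines.

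**Figure D4:**
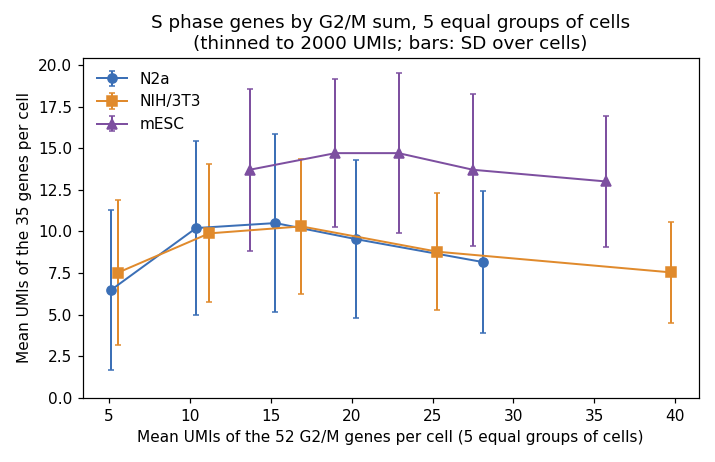
Mean number of UMIs of the 35 genes per cell (y axis, bars are SD over cells) against the mean number of UMIs of 52 G2/M genes (x axis) in 5 equal groups of the cells of each line, thinned to 2000 UMIs. The N2a and NIH/3T3 curves go from 6.47 and 7.53 up to 10.5 and 10.3 and down again, while the mESC curve stays between 13.0 and 14.7.

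Within a line, each gene was set against the summed UMIs of the other 34 over thinned cells. All of these correlations come from cells of 1 library with few UMIs per gene, so they are small and are given as a description. The median r was 0.157 in N2a, with a range from 0.050 (lowest gene) to 0.320 (Dtl), 0.049 in mESCs (-0.014 to 0.137) and 0.089 in NIH/3T3 (0.035 to 0.176). These values depended on the processing, and with all UMIs of each cell on a log scale the medians were 0.317 in N2a, 0.204 in mESCs and 0.243 in NIH/3T3. That setting took in all kept cells, at unequal depth, and summed log values. Which of these changes moved the medians was not tested. At 2000 UMIs, an r of at least 0.1 was reached by 29 of the 35 genes in N2a, where 0.996% of all tested genes outside the set reached it with the full sum. In NIH/3T3 it was reached by 15 genes against 0.488% of the others, and in mESCs by 5 against 0.0618%. The median r was lower for the 60 other replication genes, at 0.074, 0.060 and 0.028 in N2a, NIH/3T3 and mESCs, and near 0 for the G2/M genes, at -0.007, -0.035 and -0.017. None of these groups of genes was matched to the 35 for level, and the genes outside the set went down to a mean of 5 CPM. Counting holds r small for a gene with few UMIs, and the part of level in these gaps was not tested. Between the sums of the 7 roles, the median r over 21 pairs was 0.17 in N2a, 0.05 in mESCs and 0.10 in NIH/3T3.

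The same could be seen as levels. For each gene, the cells of a line were ranked by the UMIs of the other 34 genes and split into 4 equal groups, and the level in the highest group of cells was divided by that in the lowest. The median ratio over the 35 genes was 2.71 in N2a (1.41 to 15.8), 1.27 in mESCs (0.922 to 2.51) and 1.62 in NIH/3T3 (1.22 to 10.2), and the exact interval lay above 1 for 35, 19 and 29 genes. These ratios were not computed for genes outside the set. Cdc6 in N2a went from 10.6 CPM in the lowest group to 168.0 in the highest (15.8-fold, 8.62 to 32.3), in NIH/3T3 from 23.6 to 91.2 CPM, and in mESCs from 67.6 to 124.7 CPM. Rrm2 went from 20.3 to 120.7 CPM in N2a, from 114.9 to 239.9 in NIH/3T3 and from 198.5 to 338.7 in mESCs. Ung in NIH/3T3 went from 4.50 to 46.2 CPM, but with 4 UMIs in the lowest group its ratio of 10.2 had an interval from 3.71 to 39.4. Pola1 was nearly level in mESCs, at 610.5 and 671.0 CPM (1.10-fold, 0.979 to 1.23), but went from 134.2 to 443.1 CPM in N2a. Dtl went from 190.2 to 613.9 CPM in N2a and from 183.5 to 232.3 CPM in mESCs, so that N2a and mESCs had like levels of Dtl in their lowest groups and apart levels in their highest.

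Set side by side in the lowest groups, the median ratio of mESC over N2a was 1.93 over the 35 genes, with 24 at 1.5 or more and 5 below 1. In the highest groups it was 1.11, with 8 at 1.5 or more and 16 below 1. Shares over all genes were not computed in these groups of cells, so the counts have no background and are given as a description. For mESC over NIH/3T3 the medians were 1.73 in the lowest and 1.37 in the highest groups. For N2a over NIH/3T3 they were 0.816 and 1.20, on either side of 1. The ratio of mESC over N2a was thus smaller among the cells with the most UMIs of these genes than among those with the fewest, for 35 of the 35 genes. This count restates that the ratio of the highest to the lowest group was larger in N2a for every gene, and is no separate result. The ratio of mESC over N2a was 9.79 and 2.81 for Rrm2 in the lowest and highest groups, and 6.37 and 0.743 for Cdc6. It was 4.55 and 1.51 for Pola1, 5.52 and 3.15 for Nasp, and 0.412 and 0.344 for E2f8. The groups are defined within each line, so that those of different lines do not hold the same summed level.

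**Figure D5:**
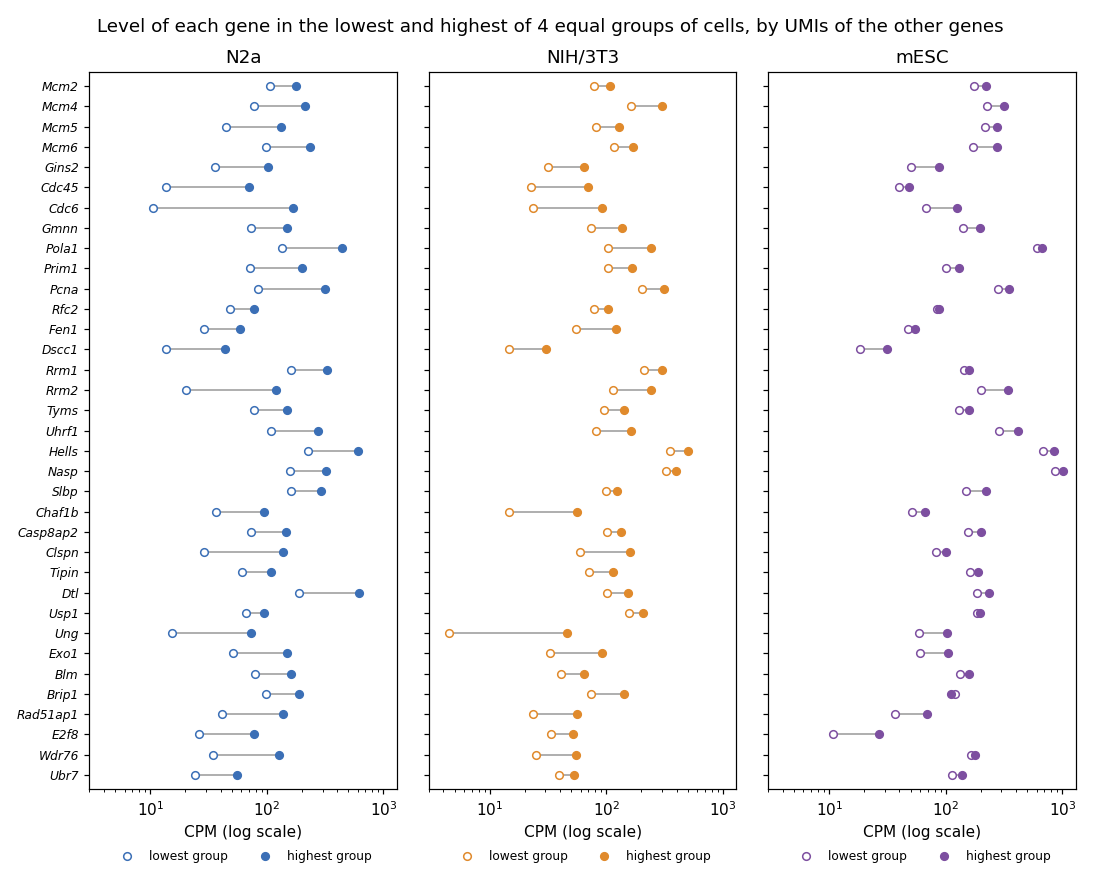
Level in CPM (x axis, log scale) of each of the 35 genes in the lowest (open symbols) and the highest (filled symbols) of 4 equal groups of cells ranked by UMIs of the other 34 genes, in N2a, NIH/3T3 and mESCs. The distance between both symbols has a median of 2.71-fold in N2a, 1.27-fold in mESCs and 1.62-fold in NIH/3T3, and is largest for Cdc6 in N2a (10.6 to 168.0 CPM).

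Among all tested genes outside the set, those whose correlation with the summed 35 genes had the highest minimum over the 3 lines included 3 of the other replication genes among 10. Mcm3, an MCM subunit that is not in the set, led with an r of 0.192 in N2a, 0.105 in mESCs and 0.126 in NIH/3T3. Cdt1 (0.179, 0.075 and 0.124 in N2a, NIH/3T3 and mESCs) and Pold3 (0.097, 0.075 and 0.099) are the others of the 3. Atad2, a chromatin ATPase gene, had 0.393, 0.225 and 0.078, and the linker histone gene H1f5 had 0.333, 0.287 and 0.086, both highest in N2a. The chromatin protein gene Dek had 0.166, 0.089 and 0.098, the Ran-binding protein gene Ranbp1 0.108, 0.100 and 0.079, the purine synthesis gene Paics 0.164, 0.075 and 0.074, and Cdc25a, a phosphatase that activates cyclin-dependent kinases, 0.102, 0.096 and 0.070. In mESCs these values are weak and carry no finding for a single gene.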

How the data were processed

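The authors processed 1 CapSeq library of 3 mouse lines with their CapMux pipeline, which split the reads by BC1, trimmed the TSO sequence and counted UMIs with STARsolo on GRCm39 with a GENCODE annotation. They deposited 4 matrices of UMI counts, neither normalized nor filtered for cells, and the feature mode and use of strand are not given in the sources used here. The pooled matrix holds the same reads as the matrices of the lines and was used only as an alternative. No value column was unused (0).

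Cells were kept at 1000 or more UMIs and at most 20% mitochondrial UMIs, and levels are CPM of UMIs summed over cells. Genes with a mean of at least 5 CPM over the lines entered counts of calls, made at 1.5-fold with a pseudocount of 1 CPM. Cells were thinned to 2000 UMIs with a fixed seed. Intervals are exact Poisson or binomial at 95%, and a count of 0 was taken to allow 3 counts. With 1 culture per line and no replicates, no test was run. Genes named were the 35, other replication genes past 1.5-fold (at most 3 per pair and direction), and 9 of the 10 genes most like the set. Mcm7 and Dnmt1 were named in addition, beside related genes of the set. The genes, roles and lists were chosen with earlier results of these data known, and the split of cells into 4 groups was added after levels were seen.

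Annotation came from GENCODE on GRCm39, where 32953 of 33565 identifiers and all 35 genes were found. Of the 35, 12 overlap a gene on the opposite strand (Gins2, Cdc45, Gmnn, Pcna, Rfc2, Fen1, Dscc1, Nasp, Tipin, Brip1, E2f8 and Wdr76) and 1, Chaf1b, a gene on the same strand, so reads of the 12 and their neighbours cannot be told apart if strand was not used, and those of Chaf1b in either case. In simulated pairs drawn from the mESC totals, 200 of 200 changed genes among 10764 were recovered and 2 of 10564 unchanged genes were called. All planted changes were well past the 1.5-fold threshold, and only counting noise at equal depth was simulated. The simulation therefore cannot describe ratios near the threshold or variation between cultures. The tools were pandas 2.3.3, scipy 1.17.1, numpy 2.4.6 and matplotlib 3.10.9 under Python 3.11.15.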

Additional observations from a re-analysis of the deposited data

Results flagged for a closer look

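The S phase genes were also counted in barcodes that were not kept as cells, those with fewer than 1000 UMIs. Their summed level there was 4155.1 CPM in the N2a matrix (182830 barcodes), 4285.1 CPM in the NIH/3T3 matrix (166613 barcodes) and 6602.2 CPM in the mESC matrix (143330 barcodes). These levels were taken up because they lie in data outside the comparisons of cells and above the limit that a count of 0 allows. The order of mESCs against both other lines was that of the cells, with levels below those of cells (4438.0, 4402.3 and 7054.2 CPM). Whether such barcodes hold free RNA or shallow cells was not tested.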

How the results depend on the processing

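No paired analysis was possible because the result comes from no test and each line is 1 culture. Of 174 alternative values for the summaries, 138 stayed within their interval or limit and 36 did not, and 4 changed sign. The log2 ratio of the summed level was 0.67 for mESC over N2a and became 0.68 without mitochondrial and ribosomal protein genes, 0.65 as the mean of per-cell CPM, 0.72 when scaled to the median of all genes, 0.63 without Hells, the gene with the most UMIs, and 0.45 as the median of the 35 genes. For mESC over NIH/3T3 it was 0.68 and became 0.65 without mitochondrial and ribosomal protein genes, 0.66 without Hells and 0.39 as the median of the genes. For N2a over NIH/3T3 it was 0.01 and became -0.03 without mitochondrial and ribosomal protein genes, -0.02 when scaled and 0.04 without Hells, so that its sign turned under the first 2. Without Nasp, Pola1 and Hells, an alternative chosen after seeing the data, the 3 log2 ratios were 0.41, 0.46 and 0.04 in that order. At 2-fold and 1.25-fold the counts of genes called became 1 and 6 for N2a over mESC (2 at 1.5-fold), 9 and 23 for mESC over NIH/3T3 (15), 1 and 4 for NIH/3T3 over mESC (2), 2 and 13 for N2a over NIH/3T3 (8), and 2 and 11 for NIH/3T3 over N2a (6). The median r of a gene with the other 34 depended on the thinning, which also leaves out the cells below its depth. The setting with all UMIs took in all kept cells at unequal depth and summed log values. In N2a it was 0.157, with 0.090 at 1000 UMIs, 0.217 at 4000 UMIs and 0.317 with all UMIs on a log scale. In NIH/3T3 it was 0.089, with 0.052 at 1000, 0.158 at 4000 and 0.243 with all UMIs, and in mESCs 0.049, with 0.041 at 1000, 0.087 at 4000 and 0.204 with all UMIs. The r between the S phase and G2/M sums was 0.070 in N2a, with 0.017 at 1000 UMIs and 0.242 with all UMIs. With all UMIs it turned from -0.072 to 0.134 in NIH/3T3 and from -0.067 to 0.336 in mESCs (-0.134 at 4000 UMIs), and the cause was not tested. The median number of list UMIs per 1000 in mESCs went from 7.0 to 7.01. Of 517 values for single genes, 506 kept their call, 11 fell under 1.5-fold and 0 reversed. The latter 11 belong to 4 ratios, of Exo1, Pola1 and Rfc2 for N2a and NIH/3T3 and of Gmnn for mESC and NIH/3T3.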
